A study of Mus musculus with 9 samples.

Results

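The primary cilium and intraflagellar transport genes are 43 of the 19938 mouse genes that a single-gene probe set measured here. They were chosen by symbol rather than by a measured value, though earlier results of these data were known when they were chosen. The choice took each gene of the Ift, Bbs and Tctn gene families together with named ciliary genes such as Evc, Evc2, Stk36, Dync2h1, Wdr35, Cep290, Tulp3, Inpp5e and Ofd1, and kept for each gene the probe set with the highest mean. Arl13b also belongs to that choice and was not analysed here. RNA abundance was measured on Affymetrix Mouse Gene 1.0 ST arrays in 3 groups of 3 samples, all from mice at postnatal day 13. The groups were cerebellum labelled wildtype, cerebellum labelled SufuKO, and medulloblastoma, a tumour of the cerebellum, labelled Ptch1KO. The labels name no Cre driver, allele or strain, and do not say whether a sample was 1 animal or a pool. Whether replicates came from separate animals is likewise not stated, and the p-values below then reflect only variation among these arrays, some of which may be technical.

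The primary cilium is a microtubule-based antenna that grows from a centriole and projects from the cell surface. Cargo moves along it by intraflagellar transport (IFT): trains of IFT-B proteins are carried towards the tip by kinesin, and IFT-A proteins with the dynein-2 motor carry them back. The BBSome takes membrane proteins out of the cilium, and the transition zone at its base gates what enters. Vertebrate Hedgehog signalling runs through this organelle. The receptor Ptch1 leaves the cilium and the transducer Smo enters it when ligand binds, and Gli transcription factors bound to Sufu pass through its tip. Granule neuron progenitors of the cerebellum carry primary cilia, and need them to divide in response to Sonic hedgehog.

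All values below are log2 levels as deposited, and a difference of 1 is a factor of 2. Array medians ranged from 6.72 to 6.79. The targeted gene checks the label of the Sufu KO group: Sufu read 9.03, 8.82 and 9.02 on the wildtype arrays, 8.07, 8.14 and 7.99 on the Sufu KO arrays and 9.91, 9.92 and 9.81 on the tumour arrays, with no overlap between groups. Ptch1 read 10.25, 10.26 and 10.28 on the wildtype arrays, 10.19, 10.16 and 10.25 on the Sufu KO arrays and 11.24, 11.43 and 11.17 on the tumour arrays; the labels do not say which part of Ptch1 is deleted, so this does not check that group. Cerebellar identity was read from Gabra6, a receptor subunit of mature granule neurons, at 11.97 ± 0.10 in wildtype, 11.17 ± 0.06 after loss of Sufu and 9.80 ± 0.49 in the tumours (mean ± SD, n = 3), and from the Purkinje cell gene Pcp2, at 10.08 ± 0.06 in wildtype, 9.57 ± 0.09 after loss of Sufu and 8.29 ± 0.02 in the tumours. Atoh1, which specifies granule neuron progenitors, was at 6.49 ± 0.21 in wildtype, 7.99 ± 0.25 after loss of Sufu and 9.90 ± 0.45 in the tumours. Xist was high on 3 wildtype arrays, 1 Sufu KO array and 1 tumour array, so the sex read from it differs between the groups. On the first principal component tumour replicate 3 was the tumour array closest to the rest, at 26.1 against 41.3 and 39.9.

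The mean level of the cilium genes was slightly higher in both mutants. On the log2 scale it lay between 7.47 and 7.50 on the wildtype arrays, between 7.55 and 7.63 on the Sufu KO arrays and between 7.59 and 7.74 on the tumour arrays. The wildtype arrays did not overlap with either mutant group in this mean, and the mutant groups overlapped with each other. All 43 genes stood above the array's 25th percentile on each of the 9 arrays, so none entered the test through a single bright group. In bulk tissue, a change in the share of ciliated cells and a change of RNA within a cell cannot be told apart.

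**Figure D1:**
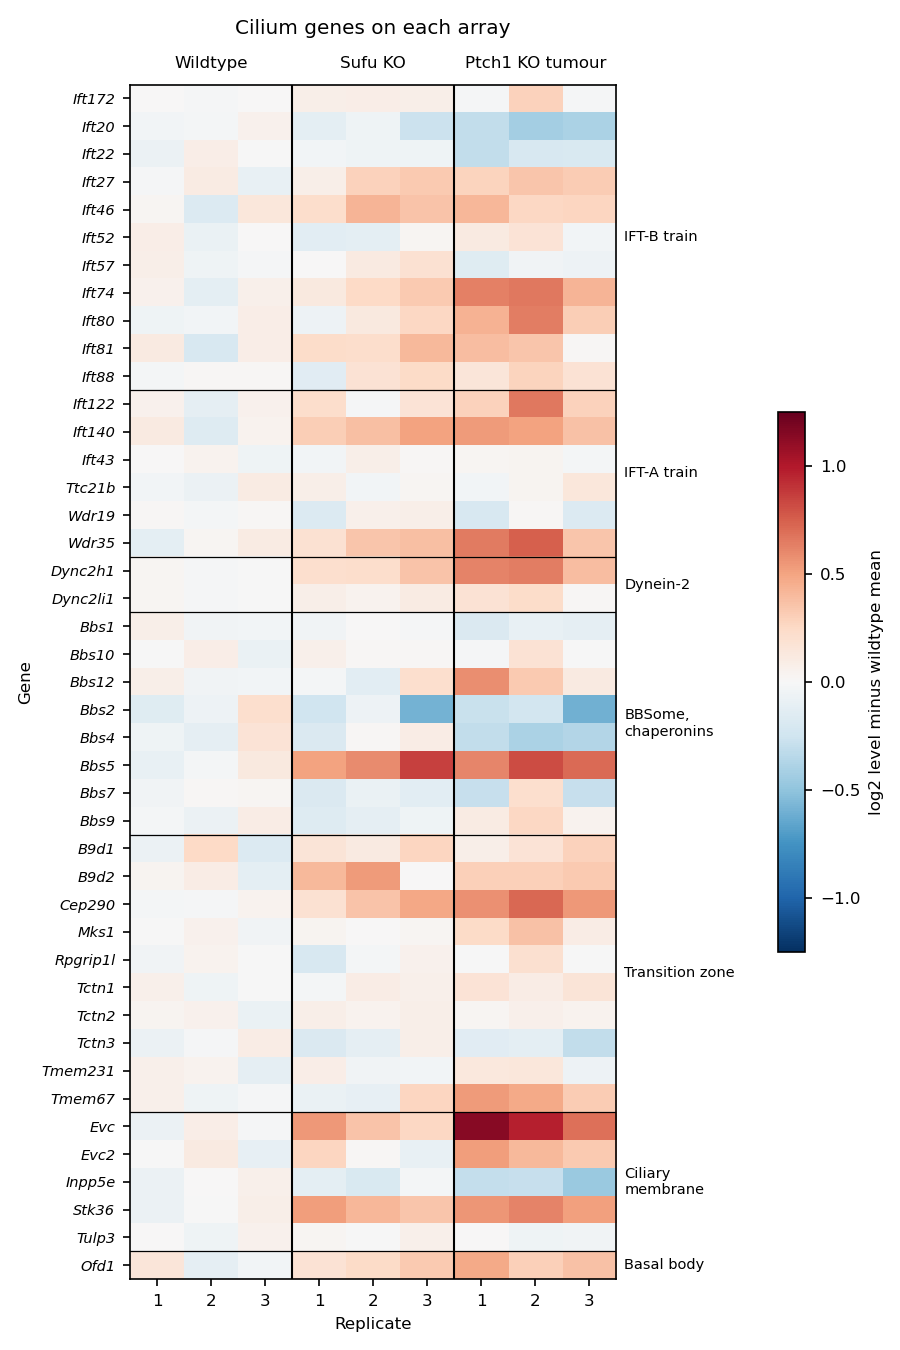
Level of each of the 43 cilium genes on each of the 9 arrays, as the log2 level minus the gene's wildtype mean (colour scale), with genes grouped by role and arrays by group. Rows that turn red in the tumours include Evc, Bbs5, Cep290, Wdr35 and Dync2h1, and rows that turn blue include Ift20, Inpp5e and Bbs4.

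The first comparison asks how cerebellum labelled SufuKO differs from wildtype cerebellum. Of the 43 genes, 9 (20.9%) rose and 34 were not called (limma, Benjamini-Hochberg adjusted p under 0.05), and 0 were called lower, with 13 higher and 0 lower at an unadjusted p under 0.05, against 18.3% and 17.5% of all genes. Among all 16323 genes tested, 13% were called higher and 12.4% lower. The 9 risers were Bbs5, Stk36, Ift140, Cep290, Ift46, Evc, Dync2h1, Ofd1 and Wdr35. The median log2 difference of the 43 genes was 0.06, against -0.01 over all genes, and 31 of 43 were positive. Bbs5 was the 1 gene called with a difference of at least 1.5-fold, which 5.83% of all genes met.

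The second comparison sets the tumours against wildtype cerebellum. Here 18 of 43 genes (41.9%) rose, 5 (11.6%) fell and 20 were not called, while 22.1% of all genes were called higher and 24.7% lower. At an unadjusted p under 0.05, 20 were higher and 6 lower, against 24.4% and 27.5% of all genes. Those that fell were Ift20, Ift22, Bbs2, Bbs4 and Inpp5e. The median log2 difference was 0.14, against -0.01 over all genes, and 32 of 43 were positive. A difference of at least 1.5-fold was called for 3 of the 43 (Evc, Bbs5 and Cep290), against 18.3% of all genes. Both comparisons use the same 3 wildtype arrays, so their counts are not independent of each other.

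The mutants were then compared directly. In the tumours 9 of 43 genes (20.9%) were higher than in Sufu KO and 3 (6.98%) were lower, against 12.2% and 17.5% of all genes. The 9 were Evc, Evc2, Tmem67, Ift74, Ift80, Dync2h1, Cep290, Bbs9 and Mks1, and the 3 were Ift20, Bbs4 and Inpp5e. No cilium gene was called with at least 1.5-fold (0 of 43, against 8.14% of all genes by the same limma test); by unadjusted p under 0.05, 12 were higher and 5 lower at any fold, against 16.3% and 21.6% of all genes.

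Most calls between the mutants did not withstand every alternative: those of Evc and Tmem67 held throughout. The Ift74 call held in 19 of 20 (adjusted p 0.000124 to 0.0511), ending without tumour replicate 2. The Ift80 call held in 19 of 21 (adjusted p 0.000227 to 0.0868), ending without Sufu KO replicate 1 and without tumour replicate 2. The Bbs4 call held in 19 of 21 (adjusted p 0.000199 to 0.0552), ending without Sufu KO replicate 2 and without tumour replicate 2. The Evc2 call held in 18 of 21 (adjusted p 7.49e-05 to 0.0684), ending without Sufu KO replicate 2 or 3 and without tumour replicate 1. The calls of Dync2h1 and Bbs9 each held in 17 of 21, ending without Sufu KO replicate 1 or 2 and without tumour replicate 1 or 2 (adjusted p up to 0.0746 and 0.141). That of Cep290 held in 15 of 20 (adjusted p 0.000825 to 0.121), ending with only these groups in the fit, without Sufu KO replicate 1 or 2 and without tumour replicate 1 or 2. That of Inpp5e held in 15 of 21 (adjusted p 0.0202 to 0.0994), ending with only these groups in the fit, with the replicate number as a block, without Sufu KO replicate 1 or 3 and without tumour replicate 1 or 3. That of Ift20 held in 14 of 21 (adjusted p 0.000254 to 0.155), ending with quantile normalization, with only these groups in the fit, with the replicate number as a block, without Sufu KO replicate 1 or 2 and without tumour replicate 2 or 3. That of Mks1 sat at the threshold and held in 5 of 20 (adjusted p 0.000751 to 0.213), ending when any single array but tumour replicate 3 was left out, among other settings.

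**Figure D2:**
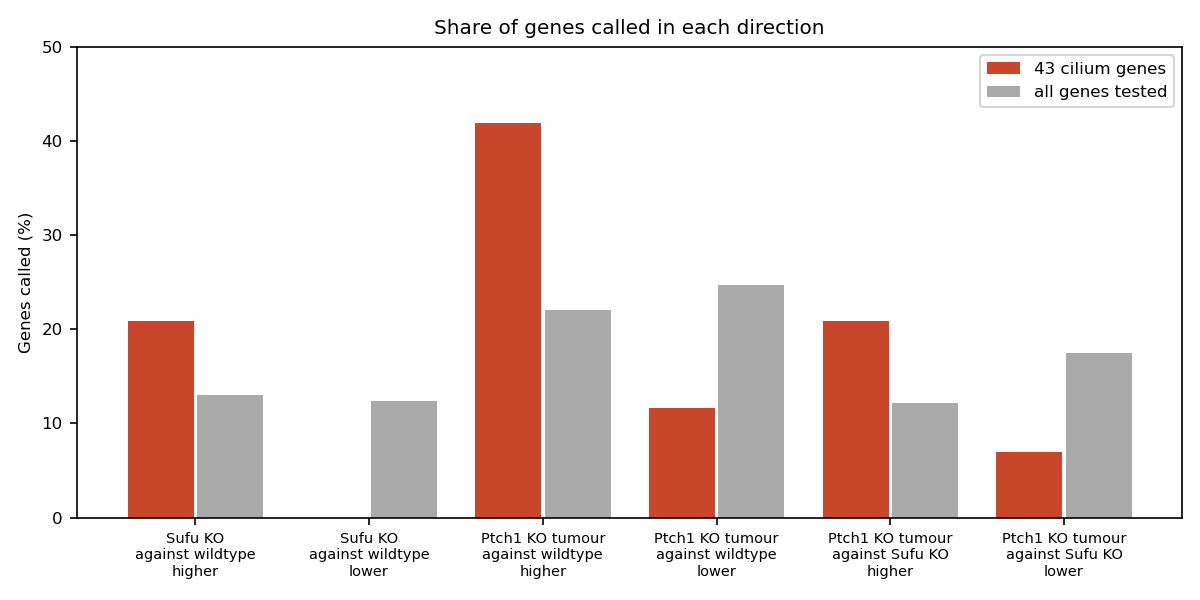
Percent of genes called higher or lower in each comparison (limma adjusted p under 0.05), for the 43 cilium genes (red bars) and for all genes tested (grey bars). The cilium genes' share of higher calls stands above the grey bar in each comparison and their share of lower calls below it, at 41.9% higher and 11.6% lower in the tumours against wildtype.

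The counts rest on 3 arrays a group and move with single arrays. Without Sufu KO replicate 2 the risers in Sufu KO numbered 4, and without wildtype replicate 3 they numbered 5. The 5 genes lower in the tumours became 3 without wildtype replicate 2 or without tumour replicate 1. Between the mutants the 9 higher calls became 4 without tumour replicate 1, 3 without tumour replicate 2, and 4 without Sufu KO replicate 1 or 2; the 3 lower calls became 1 without Sufu KO replicate 2, tumour replicate 2 or tumour replicate 3, and also 1 with the replicate number as a block.

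**Figure D3:**
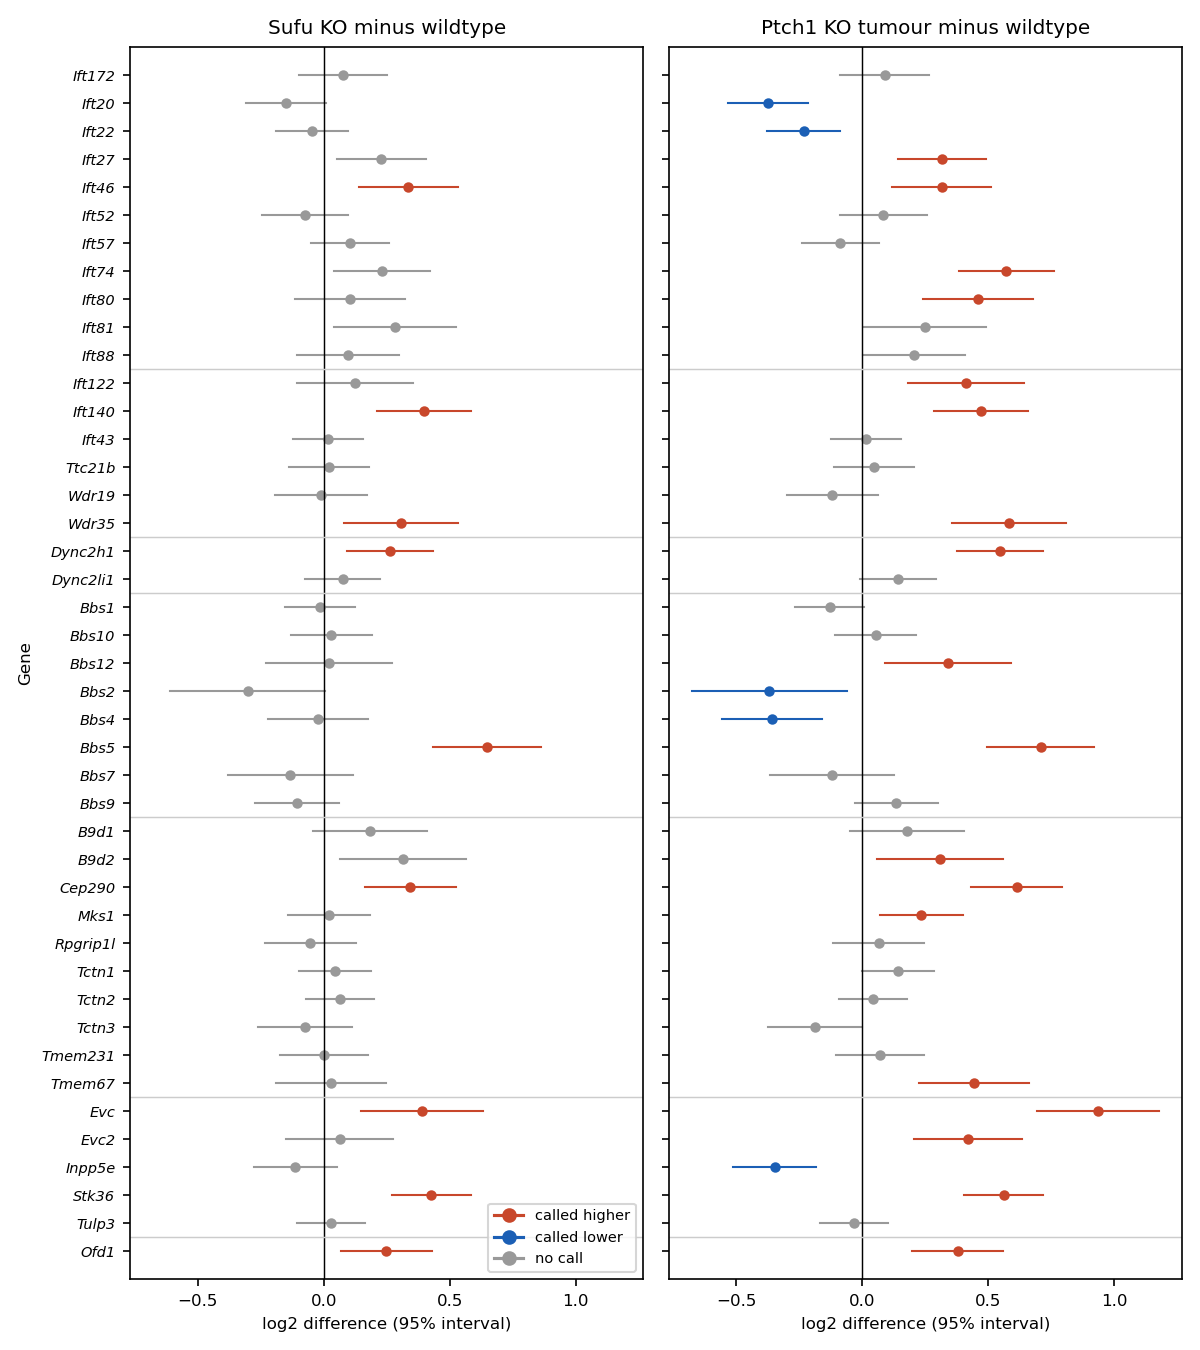
Log2 difference from wildtype of each of the 43 cilium genes in Sufu KO (left) and in the tumours (right), as points with unadjusted 95% intervals, coloured by call (limma adjusted p under 0.05). Evc has the largest difference, 0.93 in the tumours, and the lowest point is Ift20 in the tumours, at -0.38.

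A feature that the choice of genes did not use is the sequence around their start sites. RFX transcription factors, which act on many ciliary genes, bind an X-box made of a pair of half-sites. RefSeq promoter windows (GRCm38.p6), each of 250 bases before and 50 bases after a start, were found for 38 of the 43 genes, in 40 windows. The half-site GTTGCC, on either strand, was in 19 of the 40 windows (47.5%), against 12.5% of 32851 windows of all genes. A pair of half-sites, GTTNCC followed within 3 bases by GGNAAC, overlaps the first search and was in 5 of the 40 (12.5%), against 0.804% of all windows. By gene, the half-site was present for 19 of 38 cilium genes and for 14.1% of all 27025 genes with a window. These matches describe letters in the reference and show neither binding nor a cause.

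Stretches of 30 bases around the half-site are shown for the 9 cilium genes that held it and were higher in the tumours (values further on), read 5′ to 3′ along each gene, with the motif in capitals.
Evc (chr5:37337047-37337076, minus strand): ctcaggactcagGGCAACctgaacgctcag
Bbs5 (chr2:69647191-69647220, plus strand): gatgtcgtgacaaagccggcgcGTTGCCtt
Wdr35 (chr12:8974021-8974050, plus strand): gatgcgactgggcggcggtgGTTGCCaggc
Stk36 (chr1:74601454-74601483, plus strand): acgccgtttctaGGCAACtgaagactctag
Dync2h1 (chr9:7177009-7177038, minus strand): catagcgacggagcttGGCAACtgctgagt
Ift140 (chr17:25015965-25015994, plus strand): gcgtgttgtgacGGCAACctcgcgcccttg
Ift27 (chr15:78174073-78174102, minus strand): gggttgatgatgGTTGCCaggagcctgttt
B9d2 (chr7:25680784-25680813, plus strand): gaggaacctgctGTTGCCccagcaacagtc
Mks1 (chr11:87853179-87853208, plus strand): gccagcgtctccGTTGCCAGGGGAACgagg

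The 5 windows with a paired motif belonged to Mks1, above, and to 4 genes without a call in the tumours. The stretches of Tctn1 and Bbs7 are shown as examples of the full pair. The capitals cover the whole pair.
Tctn1 (chr5:122264411-122264440, minus strand): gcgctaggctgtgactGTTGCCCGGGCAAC
Bbs7 (chr3:36613493-36613522, minus strand): gaatgcgccccgGTTGCCTTGGAAACcggc

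The half-site lay 183 bases before the start of Evc and 109 bases before that of Ift140, and the 250 bases before these starts are given whole because Evc showed the largest difference among the 43 genes and Ift140 was called in both mutants. For Bbs5, Dync2h1, Wdr35, Stk36 and B9d2 the half-site began 42, 36, 40, 11 and 16 bases after the start. Of the 18 genes higher in the tumours, 15 had a window and 9 of them held the half-site, as did 10 of 18 genes without a call and 0 of 5 genes lower.
Evc (chr5:37336882-37337131, minus strand): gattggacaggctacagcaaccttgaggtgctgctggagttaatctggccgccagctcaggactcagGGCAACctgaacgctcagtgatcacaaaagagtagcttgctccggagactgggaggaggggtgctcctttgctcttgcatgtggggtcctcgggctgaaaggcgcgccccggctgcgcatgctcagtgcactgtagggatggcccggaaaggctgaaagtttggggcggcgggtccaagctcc
Ift140 (chr17:25015836-25016085, plus strand): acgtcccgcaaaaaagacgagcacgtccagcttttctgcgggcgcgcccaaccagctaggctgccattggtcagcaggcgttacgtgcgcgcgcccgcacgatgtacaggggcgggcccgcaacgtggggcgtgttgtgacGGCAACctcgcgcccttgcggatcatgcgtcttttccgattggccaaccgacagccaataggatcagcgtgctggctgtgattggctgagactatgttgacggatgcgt

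IFT-B, which builds the outward trains, held genes called in both directions. Of its 11 genes, 1 rose in Sufu KO, and in the tumours 4 rose, 2 fell and 5 were not called. Beside this and the role counts below stand the shares of all genes. In Sufu KO 13% were called higher and 12.4% lower, and in the tumours 22.1% higher and 24.7% lower. No role was tested against these shares. Ift74 read 5.65, 5.49 and 5.67 on the wildtype arrays, 5.72, 5.85 and 5.93 on the Sufu KO arrays and 6.23, 6.27 and 6.02 on the tumour arrays. Ift74 binds tubulin together with Ift81, and its tumour arrays were all above the Sufu KO arrays, which were all above wildtype. It rose 1.49-fold (adjusted p = 0.000139) in the tumours and was 1.27-fold (adjusted p = 0.0101) above Sufu KO, while Sufu KO stood 0.23 ± 0.09 (± SE) above wildtype on the log2 scale, not called (adjusted p = 0.0730). Its wildtype arrays lay close above the arrays' 25th percentiles (5.32 to 5.41), so this is a dim gene. Its partner Ift81 had a log2 difference of 0.28 ± 0.11 (adjusted p = 0.0835) in Sufu KO and 0.25 ± 0.11 (adjusted p = 0.0903) in the tumours, neither called.

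Ift80 read 7.30, 7.31 and 7.43 on the wildtype arrays, 7.28, 7.46 and 7.61 on the Sufu KO arrays and 7.78, 7.99 and 7.65 on the tumour arrays. Ift80, a peripheral IFT-B subunit, rose 1.37-fold (adjusted p = 0.00211) in the tumours and was 1.28-fold (adjusted p = 0.0176) above Sufu KO, whose arrays overlapped with wildtype. Ift46 read 8.72, 8.54 and 8.85 on the wildtype arrays, 8.93, 9.13 and 9.06 on the Sufu KO arrays and 9.11, 8.96 and 8.97 on the tumour arrays. Ift46, a core subunit, was higher in both mutants, 1.26-fold (adjusted p = 0.0160) in Sufu KO and 1.24-fold (adjusted p = 0.0115) in the tumours, and the mutants overlapped (difference -0.02, 95% interval -0.22 to 0.17). Its Sufu KO call ended with sex as a covariate, without wildtype replicate 2 and without Sufu KO replicate 2 (adjusted p 9.82e-05 to 0.0754), and its tumour call ended without wildtype replicate 2 and without tumour replicate 1 (adjusted p 0.00395 to 0.0600). Ift27 read 6.85, 6.97 and 6.77 on the wildtype arrays, 6.94, 7.15 and 7.19 on the Sufu KO arrays and 7.15, 7.21 and 7.18 on the tumour arrays. Ift27, a small GTPase-like subunit that links the trains to the BBSome, rose 1.24-fold (adjusted p = 0.00597) in the tumours; in Sufu KO 1 array lay within the wildtype range and the difference of 0.23 was not called (adjusted p = 0.0569).

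The IFT-B genes that fell were Ift20 and Ift22. Ift20 read 10.54, 10.55 and 10.63 on the wildtype arrays, 10.45, 10.52 and 10.30 on the Sufu KO arrays and 10.27, 10.15 and 10.17 on the tumour arrays. Ift20, which also sits at the Golgi and helps to deliver membrane proteins to the cilium, fell 1.30-fold (adjusted p = 0.000933) in the tumours, where each array was below each array of the other groups. It was 1.17-fold (adjusted p = 0.0341) below Sufu KO. Ift22 read 9.12, 9.27 and 9.19 on the wildtype arrays, 9.16, 9.14 and 9.14 on the Sufu KO arrays and 8.89, 9.0 and 9.0 on the tumour arrays. Ift22, another small GTPase-like subunit, fell 1.17-fold (adjusted p = 0.0116) in the tumours, with no overlap, a call that ended without wildtype replicate 2 and without tumour replicate 1 (adjusted p 0.00579 to 0.0580). The remaining IFT-B genes had tumour differences of 0.09 (Ift172), 0.08 (Ift52), -0.09 (Ift57) and 0.20 (Ift88), none called; Ift88 is a core subunit whose loss blocks ciliogenesis, and its tumour arrays were all above wildtype (adjusted p = 0.0923).

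IFT-A, the return train, also brings membrane receptors into the cilium. Of its 6 genes 2 rose in Sufu KO and 3 in the tumours, with 1 negative log2 difference in each (Wdr19, the third core subunit, at -0.01 and -0.12). Ift140 read 7.78, 7.51 and 7.71 on the wildtype arrays, 7.98, 8.05 and 8.17 on the Sufu KO arrays and 8.20, 8.17 and 8.04 on the tumour arrays. Ift140, a core subunit, rose 1.32-fold (adjusted p = 0.00496) in Sufu KO and 1.39-fold (adjusted p = 0.000592) in the tumours, and both calls held under all 21 alternatives. Between the mutants its difference was 0.07 (95% interval -0.11 to 0.26).

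Wdr35 read 7.26, 7.41 and 7.48 on the wildtype arrays, 7.57, 7.73 and 7.76 on the Sufu KO arrays and 8.03, 8.13 and 7.73 on the tumour arrays. Wdr35, a peripheral IFT-A subunit, rose 1.496-fold (adjusted p = 0.000505) in the tumours. In Sufu KO it was 1.24-fold (adjusted p = 0.0486) higher with no overlap, a call that sat at the threshold and held in 12 of 21 alternatives (adjusted p 0.000486 to 0.175), ending with no filter on dim genes, with each array centred on its median, with the replicate number as a block, without wildtype replicate 1, 2 or 3, without Sufu KO replicate 2 or 3 and without tumour replicate 1. Ift122 read 7.24, 7.07 and 7.23 on the wildtype arrays, 7.40, 7.17 and 7.35 on the Sufu KO arrays and 7.47, 7.84 and 7.47 on the tumour arrays. Ift122, a core subunit, rose 1.33-fold (adjusted p = 0.00589) in the tumours and stood 0.12 ± 0.10 above wildtype on the log2 scale in Sufu KO, not called (adjusted p = 0.456). The peripheral subunits Ift43 and Ttc21b had log2 differences of at most 0.05 from wildtype in both mutants, not called (95% intervals -0.12 to 0.15 and -0.11 to 0.20 in the tumours).

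The dynein-2 motor pulls the trains back to the cell body. Dync2h1 read 7.67, 7.63 and 7.64 on the wildtype arrays, 7.85, 7.87 and 8.0 on the Sufu KO arrays and 8.26, 8.28 and 8.03 on the tumour arrays. Dync2h1, its heavy chain, stepped up from wildtype to Sufu KO to tumour with no overlap between any groups: 1.20-fold (adjusted p = 0.0280) above wildtype in Sufu KO, 1.46-fold (adjusted p = 8.77e-05) in the tumours, and 1.22-fold (adjusted p = 0.0156) between the mutants. The Sufu KO call ended without any 1 of the 3 wildtype arrays or without Sufu KO replicate 2 or 3 (adjusted p 0.00215 to 0.0909 over all alternatives). The light intermediate chain Dync2li1 had log2 differences of 0.07 in Sufu KO and 0.14 in the tumours, neither called (adjusted p = 0.503 and 0.117).

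The BBSome and its chaperonins also held genes called in both directions. Of 8 genes, 1 rose in Sufu KO, and in the tumours 2 rose and 2 fell. These counts are near the shares of all genes, 13% higher in Sufu KO, and 22.1% higher and 24.7% lower in the tumours. The median log2 differences were -0.02 in Sufu KO and -0.03 in the tumours. Bbs5 read 6.31, 6.37 and 6.52 on the wildtype arrays, 6.90, 6.99 and 7.25 on the Sufu KO arrays and 7.01, 7.21 and 7.10 on the tumour arrays. Bbs5, the subunit that binds phosphoinositides of the ciliary membrane, rose 1.57-fold (adjusted p = 0.000499) in Sufu KO and 1.63-fold (adjusted p = 6.17e-05) in the tumours, and both calls held under all 21 alternatives. The mutants overlapped, with a difference of 0.06 (95% interval -0.15 to 0.27).

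Bbs4 read 7.76, 7.71 and 7.99 on the wildtype arrays, 7.64, 7.84 and 7.91 on the Sufu KO arrays and 7.51, 7.42 and 7.45 on the tumour arrays. Bbs4 fell 1.28-fold (adjusted p = 0.00554) in the tumours and was 1.26-fold (adjusted p = 0.0137) below Sufu KO, while Sufu KO overlapped with wildtype (-0.02, adjusted p = 0.900). Bbs2 read 8.09, 8.18 and 8.45 on the wildtype arrays, 8.0, 8.17 and 7.65 on the Sufu KO arrays and 7.96, 8.02 and 7.64 on the tumour arrays. Bbs2 fell 1.29-fold (adjusted p = 0.0487) in the tumours, at the threshold, and held in 12 of 21 alternatives (adjusted p 0.0194 to 0.191), ending with no filter on dim genes, with sex as a covariate, with the replicate number as a block, with array weights, without wildtype replicate 2 or 3, without Sufu KO replicate 1 and without tumour replicate 1 or 3; Sufu KO replicate 3 was close to the lowest tumour array. Bbs12 read 6.14, 6.03 and 6.04 on the wildtype arrays, 6.05, 5.94 and 6.28 on the Sufu KO arrays and 6.65, 6.40 and 6.19 on the tumour arrays. Bbs12, which helps to assemble the BBSome, rose 1.27-fold (adjusted p = 0.0277) in the tumours, a call that ended without tumour replicate 1 or 2 or wildtype replicate 2 or 3 (adjusted p 0.00448 to 0.132). Bbs9 was 1.18-fold (adjusted p = 0.0304) higher in the tumours than in Sufu KO, with neither mutant called against wildtype (log2 differences -0.11 and 0.13). Bbs1, Bbs7 and the chaperonin-like Bbs10 had log2 differences of -0.13, -0.12 and 0.05 in the tumours and were not called.

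At the transition zone 1 of 10 genes rose in Sufu KO and 4 in the tumours, and the others were not called. Cep290 read 5.47, 5.49 and 5.54 on the wildtype arrays, 5.69, 5.86 and 5.98 on the Sufu KO arrays and 6.08, 6.22 and 6.04 on the tumour arrays. Cep290, which bridges the membrane and the microtubules there, rose 1.27-fold (adjusted p = 0.00939) in Sufu KO and 1.53-fold (adjusted p = 5.41e-05) in the tumours, with no overlap between any groups. Its wildtype arrays lay just above the arrays' 25th percentiles (5.32 to 5.41), so it was dim there. Tmem67 read 7.12, 6.99 and 7.04 on the wildtype arrays, 6.97, 6.94 and 7.32 on the Sufu KO arrays and 7.58, 7.52 and 7.37 on the tumour arrays. Tmem67, the membrane protein meckelin, rose 1.36-fold (adjusted p = 0.00274) in the tumours and was 1.33-fold (adjusted p = 0.00748) above Sufu KO, whose replicate 3 stood above each wildtype array and whose other replicates lay below them.

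Mks1 and B9d2, both B9 domain proteins of one complex, had smaller rises in the tumours. Mks1 read 6.40, 6.46 and 6.36 on the wildtype arrays, 6.44, 6.41 and 6.43 on the Sufu KO arrays and 6.65, 6.77 and 6.50 on the tumour arrays. Mks1 rose 1.18-fold (adjusted p = 0.0211) against wildtype and was 1.16-fold (adjusted p = 0.0495) above Sufu KO. The call against wildtype held in 16 of 20 alternatives (adjusted p 0.00367 to 0.104) and ended without wildtype replicate 1 or 3 and without tumour replicate 1 or 2. B9d2 read 5.94, 5.99 and 5.78 on the wildtype arrays, 6.30, 6.43 and 5.90 on the Sufu KO arrays and 6.20, 6.20 and 6.23 on the tumour arrays. B9d2 rose 1.24-fold (adjusted p = 0.0429) in the tumours, and with sex as a covariate its difference was reduced to 0.15 and not called (adjusted p = 0.329, the highest of a range from 0.00370). That call held in 12 of 20 alternatives and ended with no filter on dim genes, with sex as a covariate, without wildtype replicate 1, 2 or 3 and without tumour replicate 1, 2 or 3. The third member of that complex, B9d1, had a log2 difference of 0.18 in Sufu KO and of 0.18 in the tumours, not called.

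The tectonic genes Tctn1, Tctn2 and Tctn3, whose proteins sit at the same gate, had log2 differences of 0.14, 0.04 and -0.19 in the tumours and 0.05, 0.06 and -0.07 in Sufu KO, none called. A second, dimmer probe set of Tctn1 had a log2 difference of -0.20 in the tumours (adjusted p = 0.0616) and -0.15 in Sufu KO (adjusted p = 0.225), opposite in sign to the first, and neither probe set was called. Rpgrip1l and Tmem231, further proteins of the gate, had log2 differences of 0.06 and 0.07 in the tumours, also not called.

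Of 5 genes grouped here under ciliary membrane or Hedgehog signalling, which include the kinase Stk36, 2 rose in Sufu KO. In the tumours 3 of the 5 rose and 1 fell. Evc and Evc2 form a complex near the base of the cilium that binds Smo and promotes the signal. Evc read 6.79, 6.94 and 6.84 on the wildtype arrays, 7.40, 7.22 and 7.12 on the Sufu KO arrays and 8.0, 7.83 and 7.54 on the tumour arrays. Evc rose 1.31-fold (adjusted p = 0.0219) in Sufu KO and 1.91-fold (adjusted p = 1.76e-05) in the tumours, and was 1.46-fold (adjusted p = 0.00252) higher in the tumours than in Sufu KO, with no overlap between any groups. The Sufu KO call ended with sex as a covariate (adjusted p = 0.0877, the highest of a range from 0.000602), without wildtype replicate 1 or 3 and without Sufu KO replicate 1 or 2. Evc2 read 6.45, 6.56 and 6.34 on the wildtype arrays, 6.72, 6.46 and 6.35 on the Sufu KO arrays and 6.97, 6.85 and 6.78 on the tumour arrays. Evc2 rose 1.34-fold (adjusted p = 0.00328) in the tumours and was 1.28-fold (adjusted p = 0.0149) above Sufu KO, where it overlapped with wildtype (0.06, adjusted p = 0.718). The genes lie head to head on chromosome 5, with starts 1597 bases apart in RefSeq, and only the upstream window of Evc, printed above, held the RFX half-site.

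Stk36 read 7.18, 7.25 and 7.33 on the wildtype arrays, 7.77, 7.67 and 7.60 on the Sufu KO arrays and 7.80, 7.87 and 7.76 on the tumour arrays. Stk36, the kinase related to Drosophila Fused, rose 1.34-fold (adjusted p = 0.00103) in Sufu KO and 1.48-fold (adjusted p = 3.29e-05) in the tumours, and the mutants overlapped (difference 0.13, 95% interval -0.02 to 0.29). Inpp5e read 8.31, 8.39 and 8.44 on the wildtype arrays, 8.25, 8.19 and 8.36 on the Sufu KO arrays and 8.08, 8.09 and 7.92 on the tumour arrays. Inpp5e, the phosphatase that sets the lipids of the ciliary membrane, fell 1.27-fold (adjusted p = 0.00191) in the tumours, each array of which was below each array of the other groups; it was 1.18-fold (adjusted p = 0.0315) below Sufu KO. Tulp3, which brings receptors such as Gpr161 to the cilium, differed from wildtype by 0.03 (log2) in Sufu KO and -0.03 in the tumours (95% interval -0.17 to 0.10), not called.

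Ofd1 read 7.14, 6.87 and 6.95 on the wildtype arrays, 7.17, 7.22 and 7.31 on the Sufu KO arrays and 7.46, 7.28 and 7.35 on the tumour arrays. Ofd1, a centriole and satellite protein needed for the basal body, rose 1.19-fold (adjusted p = 0.0457) in Sufu KO and 1.30-fold (adjusted p = 0.00225) in the tumours. The gene lies on the X chromosome. Xist was high on all 3 wildtype arrays and on 1 array of each mutant group, so sex and genotype are hard to tell apart. A covariate for sex rests on that 1 array in each mutant group. Those arrays, Sufu KO replicate 3 and tumour replicate 2, read 7.31 and 7.28. The first was the highest of the Sufu KO arrays and the second the lowest of the tumour arrays. With sex as a covariate the tumour call remained and the Sufu KO call ended (adjusted p = 0.108; 0.00753 to 0.182 over all its alternatives, of which it held in 12 of 21). It also ended with no filter on dim genes, with an intensity-trended prior, with only these groups in the fit, without wildtype replicate 2 or 3, without Sufu KO replicate 2 or 3 and without tumour replicate 2.

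**Figure D4:**
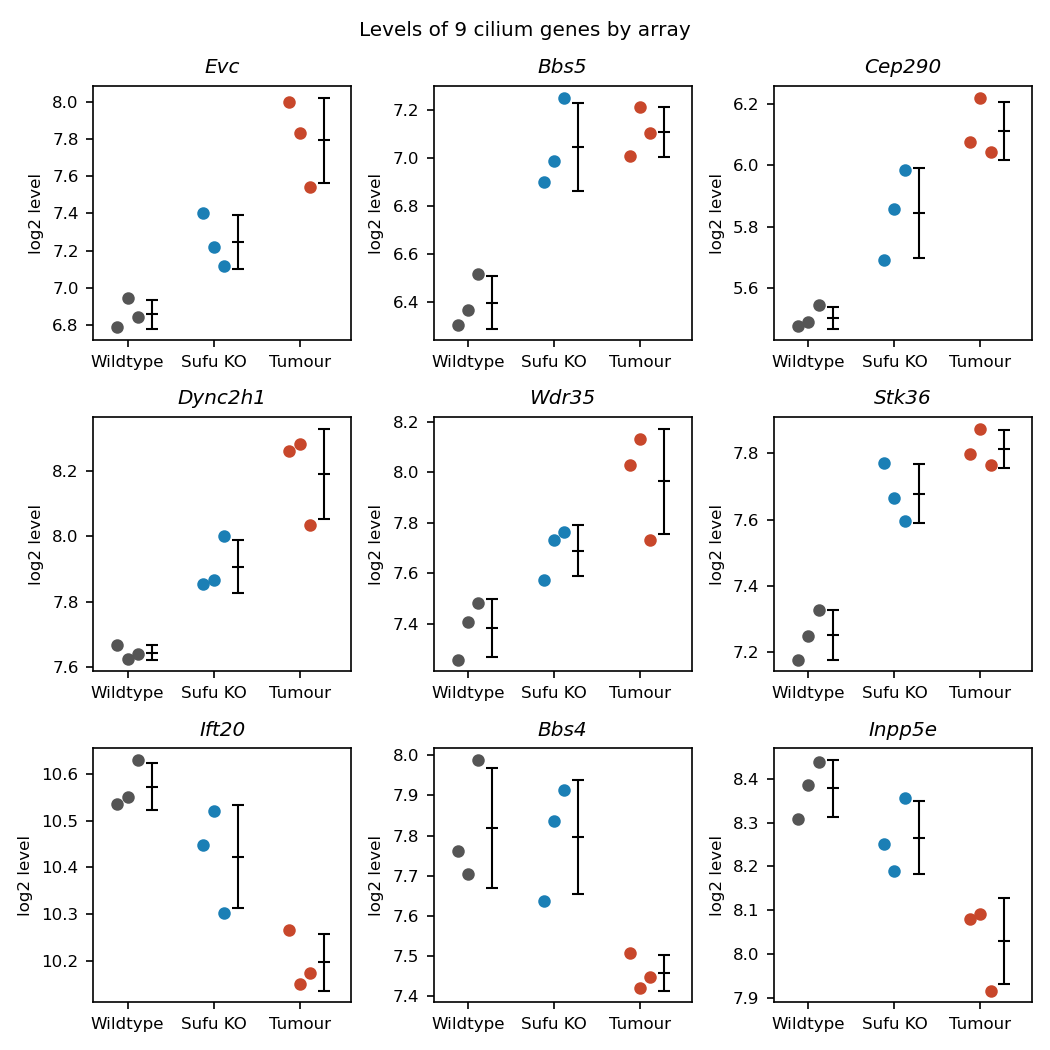
Log2 level of 9 cilium genes on each array (points), with the mean ± SD of 3 arrays beside each group; each panel has its own axis, which does not start at 0. Evc, Cep290 and Dync2h1 step up from wildtype to Sufu KO to tumour, Bbs5 and Stk36 are about as high in both mutants, and Ift20, Bbs4 and Inpp5e are lowest in the tumours.

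The genes without a call bound what the arrays could show. For the 34 genes not called in Sufu KO, the unadjusted 95% intervals of the log2 difference reached from -0.61 (Bbs2) to 0.56 (B9d2), and for the 20 not called in the tumours from -0.38 (Tctn3) to 0.49 (Ift81). A missed threshold does not show that a gene was the same, and the values inside its interval were not excluded.

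Other ciliary genes were counted in the same fit, against the same shares of all genes and the same median of -0.01. Of 20 other genes of IFT, its motors and the BBSome, 2 rose and 2 fell in Sufu KO, and 8 rose and 6 fell in the tumours (median log2 difference 0.06 in Sufu KO and -0.02 in the tumours). Ttc26, an IFT-B subunit also called Ift56, rose 1.57-fold (adjusted p = 0.000100) in Sufu KO and 1.99-fold (adjusted p = 6.05e-07) in the tumours, more than any Ift gene above in the tumours. Cilk1, a kinase of the ciliary tip, rose 1.30-fold (adjusted p = 0.00222) in Sufu KO and 1.38-fold (adjusted p = 0.000162) in the tumours. Hspb11, the IFT-B subunit also called Ift25, fell 1.34-fold (adjusted p = 0.00190) in Sufu KO and 1.23-fold (adjusted p = 0.00692) in the tumours. Of 27 other transition zone and ciliary membrane genes, 4 rose and 2 fell in Sufu KO, and 9 rose and 3 fell in the tumours (median log2 difference 0.05 in Sufu KO and 0.12 in the tumours). Tmem237, a transition zone protein, rose 1.48-fold (adjusted p = 3.02e-05) and Efcab7, which tethers the Evc complex, 1.42-fold (adjusted p = 4.09e-05) in the tumours, while Anks6, of the inversin compartment, fell 1.47-fold (adjusted p = 0.000119).

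Of 20 genes of the basal body and its satellites, 11 rose and 3 fell in the tumours, while 2 rose in Sufu KO (median log2 difference 0.11 in Sufu KO and 0.22 in the tumours). Cep83, which docks the centriole to the membrane, rose 2.0-fold (adjusted p = 6.60e-06) in the tumours and C2cd3, which is needed for its distal appendages, 1.71-fold (adjusted p = 9.24e-06). The gene 2700049A03Rik, known as Talpid3, rose 1.65-fold (adjusted p = 4.29e-06). Of 11 centriole duplication genes, 9 rose in Sufu KO and 11 in the tumours (median log2 difference 0.39 and 0.67). Plk4, the kinase that starts duplication, rose 2.13-fold (adjusted p = 0.000101) in Sufu KO and 3.75-fold (adjusted p = 2.17e-07) in the tumours, where Cenpj rose 2.16-fold and Cep192 2.35-fold. Of 12 genes of cilium disassembly and inhibition of ciliogenesis, 6 rose in Sufu KO and 9 in the tumours (median log2 difference 0.44 in Sufu KO and 0.87 in the tumours). Aurka, the kinase that triggers disassembly, rose 1.87-fold (adjusted p = 0.000156) in Sufu KO and 3.26-fold (adjusted p = 1.83e-07) in the tumours, and Plk1 and Tpx2, which also act in mitosis, rose 6.41-fold and 5.98-fold in the tumours.

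Among 10 regulators of ciliogenesis, 3 rose and 1 fell in each mutant (median log2 difference 0.06 in Sufu KO and 0.09 in the tumours). Rfx3, an RFX factor, rose 1.35-fold (adjusted p = 0.00240) in Sufu KO and 1.63-fold (adjusted p = 1.63e-05) in the tumours, and Rfx7 rose 1.37-fold (adjusted p = 0.00344) and 1.54-fold (adjusted p = 0.000119). Rfx4, another family member, fell 1.42-fold (adjusted p = 0.000311) in Sufu KO and 1.45-fold (adjusted p = 4.59e-05) in the tumours. Myb, which is also a gene of dividing cells, rose 2.80-fold (adjusted p = 7.40e-08) in the tumours. Foxj1, the master factor of motile cilia, had log2 differences of 0.03 and 0.07, not called.

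Ependymal cells carry many motile cilia, and choroid plexus cells are ciliated too. Both could add ciliary RNA, so their genes were read beside the cilium genes. Of 24 genes tested from a list of motile cilium and ependymal genes, 1 rose and 2 fell in Sufu KO. In the tumours 1 rose and 4 fell. The median log2 difference was 0.01 in Sufu KO and -0.05 in the tumours. Among all genes 13% were called higher and 12.4% lower in Sufu KO, and 22.1% higher and 24.7% lower in the tumours. Dnah11, an axonemal dynein, fell 1.76-fold (adjusted p = 1.77e-06) in the tumours. Tekt2, a tektin of the axoneme, rose 1.27-fold (adjusted p = 0.00703) in Sufu KO. Rarres2, a secreted protein that is no part of the axoneme and stood in the list as an ependymal gene, fell 1.38-fold (adjusted p = 0.00154) in the tumours. The mean log2 level of all 29 listed motile genes with a probe set lay between 5.77 and 5.90 on the wildtype arrays, 5.78 and 5.89 on those of Sufu KO and 5.73 and 5.78 on those of the tumours. These means lie below the array medians (6.72 to 6.79), so the list is dim and a small change in it could be missed. Of 9 choroid plexus genes 3 rose in each mutant, against 13% of all genes in Sufu KO and 22.1% in the tumours. Their median log2 differences were 0.30 in Sufu KO and 0.26 in the tumours, both larger than those of the cilium genes. Their mean log2 levels were 6.47 to 6.92 on the wildtype arrays, 6.48 to 7.35 on those of Sufu KO and 6.97 to 7.24 on those of the tumours, so each tumour array was above each wildtype array. Its defining marker Ttr (transthyretin) read 7.79, 10.44 and 8.78 on the wildtype arrays, 10.74, 7.83 and 11.88 on the Sufu KO arrays and 9.48, 11.05 and 11.05 on the tumour arrays. The wildtype arrays of Ttr overlapped with those of both mutants, and it was called in neither (adjusted p = 0.406 in Sufu KO and 0.191 in the tumours). No marker was at 0, since background gives each probe set of an array a reading. The part of these cells in the differences was not tested.

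Genes of dividing cells had larger differences than the cilium genes. All 15 mitosis genes rose in both mutants, against 13% of all genes in Sufu KO and 22.1% in the tumours. Their mean log2 level was 6.32 to 6.62 on the wildtype arrays, 8.32 to 8.50 in Sufu KO and 8.99 to 9.56 in the tumours. Mature granule neuron genes were at 11.18 to 11.31 in wildtype, 10.70 to 10.78 in Sufu KO and 9.56 to 10.10 in the tumours. Of 14, 10 fell and 1 rose in Sufu KO, and 12 fell and 1 rose in the tumours. Among all genes 12.4% were called lower in Sufu KO and 24.7% in the tumours. Neurod1, one of the 14, had log2 differences of 0.07 in Sufu KO and -0.11 in the tumours, not called. All 9 Purkinje cell genes and all 10 mature oligodendrocyte genes fell in both mutants. Of 11 Bergmann glia and astrocyte genes, 9 fell and 0 rose in each mutant. Of 11 granule neuron progenitor genes, 8 rose in Sufu KO and 10 in the tumours, and 0 fell. The part of dividing cells and of these other cell types in the differences of the cilium genes was not tested.

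**Figure D5:**
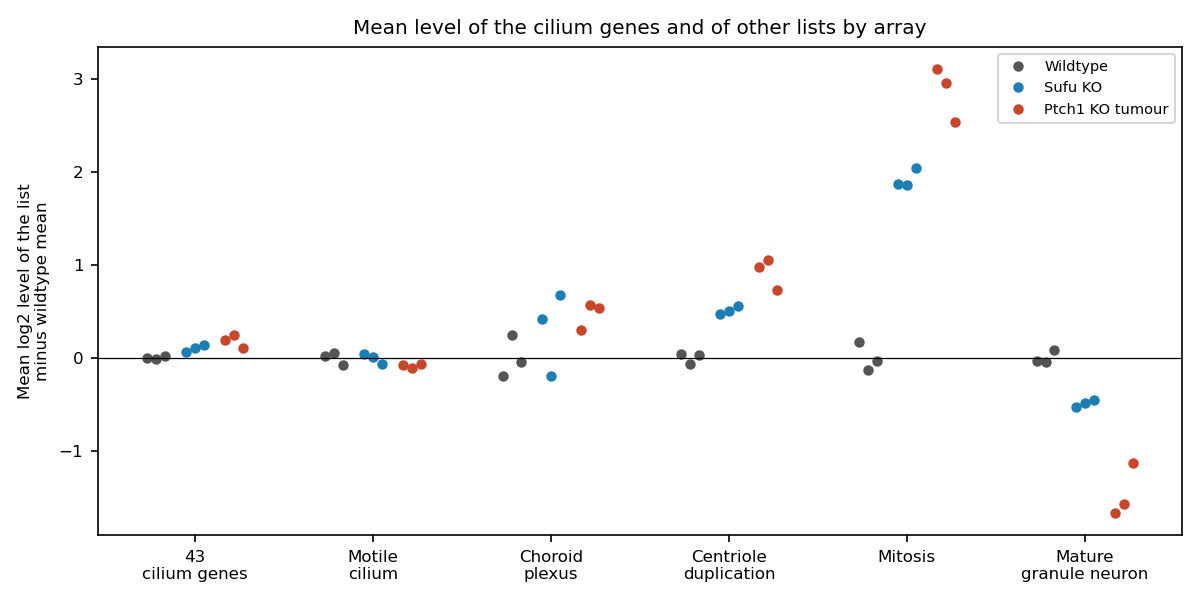
Mean log2 level on each array (points) of the 43 cilium genes and of 5 other lists, minus the list's wildtype mean, coloured by group. The cilium genes lie slightly above wildtype in both mutants, and the motile cilium genes overlap between all groups. The choroid plexus genes overlap between wildtype and Sufu KO and lie above wildtype on each tumour array. The mitosis genes stand highest in the tumours, where their mean levels before the subtraction were 8.99 to 9.56.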

How the data were processed

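Each of the 9 samples was measured on 1 Affymetrix Mouse Gene 1.0 ST array, per the labels. The authors deposited 1 table of log2 expression values for 35556 probe sets; the scale was read from the values. How background was corrected and the arrays normalized was not given in the sources used here. Probe sets were named from the annotation supplied for this array, with symbols checked by gene identifier against RefSeq (GRCm38.p6). Of these, 21789 had 1 symbol, 1621 several and 12146 were unlisted, and only those with 1 symbol were analysed as genes. The probe set with the highest mean stood for a gene. Genes had to exceed the 25th percentile of 3 or more arrays to be tested (16323 of 19938).

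With limma 3.58.1 (R 4.3.3), 1 mean was fitted for each group over all 9 arrays, with empirical Bayes variances, and 2-sided p-values were Benjamini-Hochberg adjusted over the genes tested in each comparison; every adjusted p comes from this fit, except for the second Tctn1 probe set, tested among all single-gene probe sets. Folds are 2 to the power of the log2 difference, and SE is the moderated standard error. The fit was tested on simulated data. The members and lists were chosen with earlier results of these data known. Every member is named, with values per array for those called against wildtype and not overlapping. From each other list, genes were named among the 3 with the smallest p. Further genes (Rfx7, Foxj1, Ttr, Gabra6, Pcp2, Atoh1) were named for their known roles, and Neurod1 as a listed gene without a call. The alternatives were 12 changes of filter, scaling, model or probe set and leaving out each of the 9 arrays. Promoter windows come from RefSeq (GRCm38.p6), and not every matching stretch is reported here.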

Additional observations from a re-analysis of the deposited data

How the results depend on the processing

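The counts were recomputed under 21 alternatives. No called gene reversed: over the 3 comparisons, 31, 29 and 49 of 898 single-gene values each lost their call and 19, 12 and 24 gained one. Of the called genes, 4 of 9 in Sufu KO, 17 of 23 in the tumours and 2 of 12 between the mutants kept their call in every alternative in which they were tested. Leaving out 1 array gave 4 to 11 genes higher in Sufu KO, 3 to 6 lower in the tumours, and 3 to 12 higher and 1 to 3 lower between the mutants; a group of 2 is then assumed to vary like the others. With limma's array weights, whose estimation stopped before its tolerance was reached, Sufu KO had 14 cilium genes higher and 1 lower among 7418 genes called, and between the mutants 16 were higher and 8 lower among 8147; the cause was not tested. The 3 genes lower in the tumours than in Sufu KO became 5 with a filter at the array median, which left 38 cilium genes tested, 1 when only those groups entered the fit, and 1 with the replicate block. The labels do not say whether same-numbered samples were paired. The correlations of their deviations ran from -0.31 to 0.35 over 9 pairs, with 2 above 0.1. With 3 arrays a group these neither show nor exclude a pairing. The replicate block left 9 genes higher in Sufu KO, and 18 higher and 4 lower in the tumours. The values carry no detection calls, so signal over background limits dim genes such as Cep290.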
